A study of Homo sapiens with 23 samples.

Results

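The zinc finger genes of human chromosome 19 were examined for histone H3 lysine 9 trimethylation (H3K9me3), a mark of repressed chromatin. The members were the H3K9me3 ChIP-seq peaks that overlapped, by at least 1 bp, the body of a protein-coding gene on chromosome 19 (hg19, GENCODE) with a symbol of ZNF plus digits. There were 240 such genes, out of 1480 protein-coding genes on chromosome 19 and 20163 in all. The peaks on them numbered 2148 of 157136 in NCCITs, 1720 of 151492 and 1789 of 181332 in the libraries without doxycycline, and 2329 of 123014 and 1782 of 173423 in those with doxycycline.

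NCCITs are an embryonal carcinoma line with pluripotent character, and 1 H3K9me3 library came from NCCITs that carried no dCas9-KRAB. The other 4 libraries came from SCi-NCCITs, the same line with a piggyBac cassette for tetracycline-inducible dCas9 fused to a KRAB repressor domain and 2 constitutively expressed guide RNAs directed at SVA retrotransposons. Of these, 2 libraries were made without doxycycline and 2 after 72 hours in 2 µg/mL doxycycline. The same conditions gave 3 RNA-seq, 2 YY1 ChIP-seq and 1 OCT4 ChIP-seq libraries each. All SCi-NCCIT groups share the transgene, the guides and drug selection for stable clones. No group had doxycycline without dCas9-KRAB or without guides, so the drug, the induced protein and its targeting cannot be told apart. All 10 embryonal carcinoma marker genes examined, among them POU5F1, NANOG and SOX2, were at 23.8 TPM or more in each of the 6 RNA-seq libraries.

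Most of these genes encode KRAB zinc finger proteins. Such a protein binds DNA, often a transposable element, through an array of C2H2 zinc fingers, and its KRAB domain recruits TRIM28, which brings the H3K9 methyltransferase SETDB1 and heterochromatin protein 1. The genes arose by tandem duplication and lie in clusters, and their own bodies are known to carry broad H3K9me3 over the 3′ exon that encodes the fingers, where ZNF274, itself a KRAB zinc finger protein, recruits SETDB1 in several cell types. Neighbouring fingers are joined by a conserved linker peptide, so the exon repeats a short DNA motif.

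One library without doxycycline stood apart from its replicate, and the cause was not tested. Of the 751 SVAs that the study classed as de-repressed, 225 had an H3K9me3 peak in the first library without doxycycline and 52 in the second, against 15 in NCCITs and 368 and 289 with doxycycline. This first library also had the widest peaks on the members, with a median of 944 bp where the other 4 libraries had 682 to 828 bp. The main comparisons of H3K9me3 between the doxycycline conditions are therefore given below with and without it.

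Stretches of 5 members are shown first because they span what the peaks did. Each is a piece of the longest coding exon, read 5′ to 3′ on the coding strand of hg19. The capitals mark matches to a 14-base motif that codes for 1 form of the linker between fingers, with the last base of its codons left free. The fourth codon must begin with AA, so other forms are missed, such as actggagaaaggcc in the ZNF417 stretch. ZNF91, which represses SVAs, was covered by a peak in all 5 libraries in this stretch at chr19:23543237-23543404 (minus strand). ZNF556 had the highest cover of all members and is shown at chr19:2877979-2878146 (plus strand). ZNF417 varied most between replicates, and its stretch at chr19:58420618-58420785 (minus strand) was covered in replicate 1 of each SCi-NCCIT condition and in no other library. ZNF888 at chr19:53410062-53410229 (minus strand) kept 2 linkers in the stretch and had no peak in any library. ZNF653, shown at chr19:11598329-11598496 (minus strand), also had no peak in any library, and its longest coding exon has no match to the motif. Whether that exon of ZNF653 encodes fingers was not examined.
ZNF91: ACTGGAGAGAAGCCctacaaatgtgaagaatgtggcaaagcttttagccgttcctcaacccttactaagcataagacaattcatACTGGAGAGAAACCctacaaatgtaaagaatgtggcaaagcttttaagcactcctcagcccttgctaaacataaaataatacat
ZNF556: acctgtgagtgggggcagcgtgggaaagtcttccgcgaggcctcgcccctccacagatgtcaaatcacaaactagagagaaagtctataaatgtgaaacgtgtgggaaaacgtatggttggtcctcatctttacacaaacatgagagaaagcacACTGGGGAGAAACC
ZNF417: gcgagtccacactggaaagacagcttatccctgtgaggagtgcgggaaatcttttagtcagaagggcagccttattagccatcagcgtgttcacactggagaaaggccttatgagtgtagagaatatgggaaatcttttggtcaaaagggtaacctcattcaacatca
ZNF888: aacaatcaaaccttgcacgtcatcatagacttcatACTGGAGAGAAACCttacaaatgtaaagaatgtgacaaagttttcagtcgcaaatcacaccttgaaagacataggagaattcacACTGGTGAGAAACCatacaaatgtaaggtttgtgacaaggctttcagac
ZNF653: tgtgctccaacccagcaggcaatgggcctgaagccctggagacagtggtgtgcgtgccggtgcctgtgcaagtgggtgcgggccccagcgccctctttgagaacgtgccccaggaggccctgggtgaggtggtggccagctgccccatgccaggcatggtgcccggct

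H3K9me3 was present on most chromosome 19 ZNF genes in every library. A peak lay on 208 of the 240 genes in NCCITs (86.7%, 95% Wilson interval 81.8 to 90.4%). Without doxycycline 213 (88.8%) and 210 (87.5%) genes were marked, and with doxycycline 209 (87.1%) in both libraries. The same 206 genes (85.8%) had a peak in all 5 libraries, where 32.7% of all protein-coding genes did. At the other end, 27 genes (11.2%) had no peak in any library, where this was so for 50.6% of all protein-coding genes. Only 7 members lay between. ZNF264 was marked in 1 library, ZNF304 and ZNF507 in 2, ZNF419 and ZNF541 in 3, and ZNF285 and ZNF776 in 4.

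The covered share was the percent of gene body bases under a peak, over 7.35 Mb of non-redundant sequence. It was 39.3% in NCCITs, 52.9% and 43.1% without doxycycline, and 42.1% and 46.5% with it. The first library without doxycycline was therefore the highest, and the other 4 lay between 39.3 and 46.5%. Peaks on members were also wide. Those of 5 kb or more made up 4.59 to 12.2% of member peaks and 1.23 to 3.40% of the other chromosome 19 peaks, and the widest spanned 39546 bp. Fold enrichment over background at the summit, as the peak caller gave it, had a median of 4.41 to 5.30 on members and 4.34 to 4.82 on the other chromosome 19 peaks.

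Other genes of the chromosome carried far less of the mark. The other 1240 protein-coding genes of chromosome 19 were covered over 5.03 to 7.48% of their bases, and 21.1 to 31.0% of them had a peak. The members were 7.07 to 7.997 times as covered, and held 43.9 to 48.4% of all H3K9me3-covered bases on the chromosome. The mean difference was 38.9 percentage points ± 4.35 (SD, n = 5), with the members higher in 5 of 5 libraries (exact sign-flip permutation test within library, two-sided, p = 0.0625, the smallest that 5 libraries allow). Among genes of 10 to 50 kb it was 46.3 percentage points, and against 1164 other genes with no zinc finger family symbol and no overlap with a member it was 42.2. Both of these were chosen after the data were seen.

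The 236 ZNF genes of other chromosomes lay between. Of these, 63.6 to 68.2% had a peak and 14.3 to 18.4% of their bases were covered. The members exceeded them by 28.5 percentage points ± 3.70 (SD, n = 5), again in 5 of 5 libraries (exact sign-flip permutation test, two-sided, p = 0.0625, the smallest possible). Among genes of 10 to 50 kb the difference was 23.4 percentage points.

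**Figure D1:**
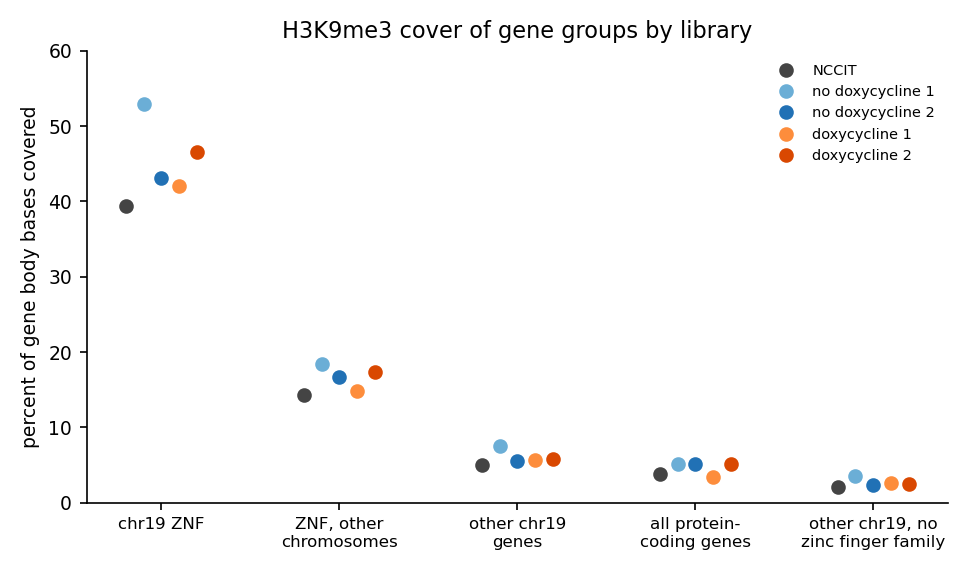
Percent of gene body bases under an H3K9me3 peak (y axis) for 5 groups of genes (x axis), 1 point per library, with libraries coloured as in the key. The chromosome 19 ZNF genes lie between 39.3 and 52.9%, above the ZNF genes of other chromosomes (14.3 to 18.4%) and all other groups in every library.

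The genes without the mark shared features of length and sequence. The 27 unmarked genes had a median length of 9.80 kb against 27.4 kb for the 206 marked in all libraries. The longest coding exon, which holds the finger array in most members, was the last coding exon in 235 of 240 genes and had a median of 1533 bp. GC content of that exon had a median of 66.5% in the unmarked genes and 40.2% in the marked ones. All 26 genes with an exon of at least 60% GC (62.1 to 74.97%) had no covered base in the exon in any of the 5 libraries. Of these, 22 had no peak anywhere on the body. The exceptions included ZNF71, with 25.5 to 60.6% of its body covered and 0% of its exon in every library. Among the 209 genes under 50% GC, 198 (94.7%) were marked in all 5 libraries, 5 in none, and 9 had an exon that was never covered. No input or read coverage was analysed here, so the part of GC content in peak calling was not tested.

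The linker motif followed the same divide. It was searched on both strands of chromosome 19 and matched 1926 times, of which 1438 matches (74.7%) lay in the longest coding exons of members. The exon held at least 1 match on the coding strand in 194 of the 206 genes marked in all libraries (94.2%, median 6 matches) and in 10 of the 27 unmarked genes (37.04%, median 0). ZNF850 had the most, with 25, and ZNF91 had 18. Of the 32 genes with no match, 12 (37.5%) were marked in all libraries. The share was 50 of 58 for 1 to 4 matches, 102 of 107 for 5 to 9, 33 of 34 for 10 to 14 and 9 of 9 for 15 or more. Median exon GC was 62.5% in the genes with no match and 39.1% in those with 15 or more, so linker number and base composition differed together, and their parts were not separated.

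Some members broke this pattern. ZNF888, an unmarked gene with 14 matches and 38.7% exon GC, had no covered base in any library. ZNF284, ZNF805 and ZNF543 were also unmarked with 6, 8 and 9 matches and exon GC of 41.8, 48.3 and 47.9%, as was ZNF552 with 2 matches and 45.7% GC. In the reverse direction, the 12 marked genes with no match to the motif included ZNF274, ZNF772 and ZNF256, whose exons were covered on average over 95.7, 100 and 96.7% of their bases. Of the exact 100-base words in these unmarked exons, 98.2% were unique on chromosome 19 for ZNF888, 100% for ZNF284, ZNF805 and ZNF543, and 78.1% for ZNF552.

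**Figure D2:**
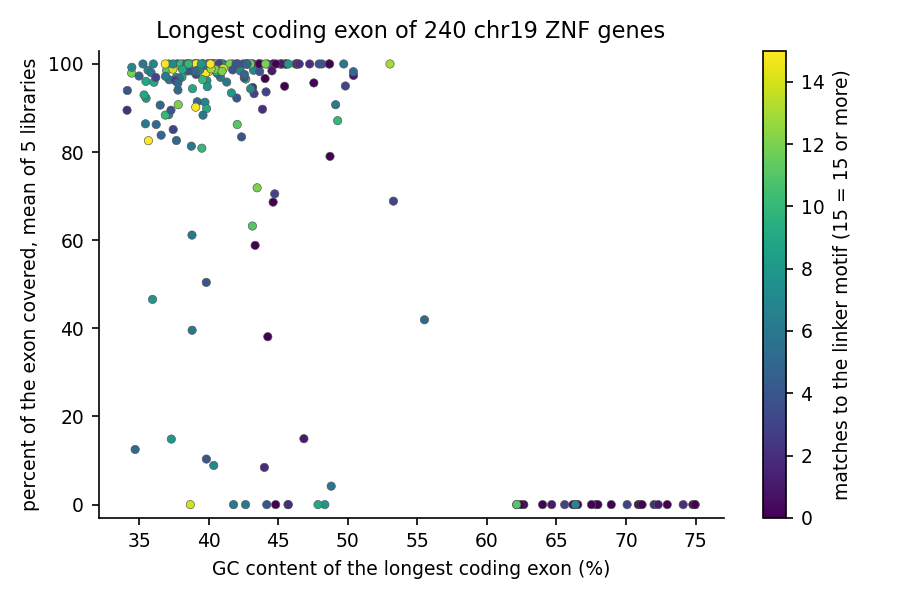
GC content of the longest coding exon (x axis, percent) against the percent of that exon under an H3K9me3 peak, as the mean of 5 libraries (y axis), for 240 chromosome 19 ZNF genes. Colour gives the number of linker motif matches. The 26 exons of at least 60% GC lie at 0%, and most exons under 50% GC lie near the top.

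Within a gene the mark rose from the 5′ to the 3′ end. With each gene body cut in 10 equal parts by strand, the mean covered share in the first part was 10.9% in NCCITs, 24.7 and 13.4% without doxycycline, and 17.0 and 16.02% with it. It reached its highest value in the ninth part, where it was 58.5, 68.2, 61.3, 58.3 and 64.1% in the same order. In the other genes of the chromosome cover was low but also higher toward the 3′ end, at 1.59 to 2.96% in the first part and 2.96 to 5.94% in the last. The last 2 parts exceeded the first 2 by 36.3 percentage points ± 2.75 (SD, n = 5), with the same sign in 5 of 5 libraries (exact sign-flip permutation test, two-sided, p = 0.0625, the smallest possible). Between 170 and 175 genes per library had more cover in the last 2 parts than in the first 2, and 26 to 34 had less. In ZNF genes of other chromosomes the same difference was 14.9 to 19.2 percentage points.

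**Figure D3:**
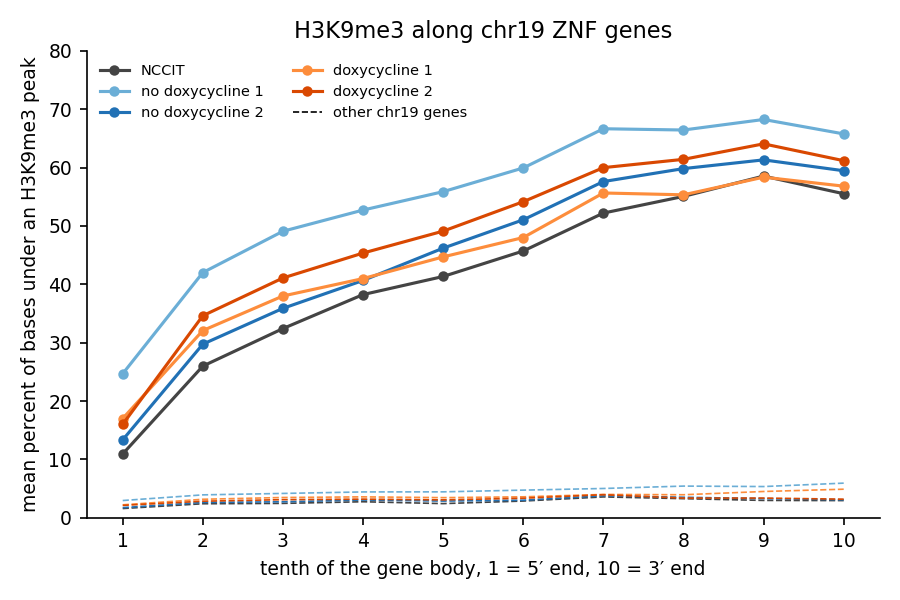
Mean percent of bases under an H3K9me3 peak (y axis) in each of 10 equal parts of the gene body from the 5′ end (1) to the 3′ end (10), 1 line per library. Solid lines with points are the 240 chromosome 19 ZNF genes, which rise from 10.9 to 24.7% at the 5′ end to 58.3 to 68.2% in the ninth part, and dashed lines are the other 1240 chromosome 19 genes.

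The 5′ end itself was mostly free of peaks. A peak reached within 500 bp of it in 19 genes in NCCITs (7.92%), in 56 and 32 genes without doxycycline (23.3 and 13.3%), and in 37 and 32 genes with doxycycline (15.4 and 13.3%). At the 3′ end this was so for 59.2 to 71.2% of the genes. In marked genes the first covered base lay at a median of 1886 to 3141 bp from the 5′ end. The dip was local, since cover 4.5 to 5 kb upstream was 26.9 to 41.6%. Cover in the first 500 bp of the gene was 4.50 to 15.2%.

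YY1, a zinc finger transcription factor profiled in the same cells, had a peak within 500 bp of the 5′ end of 135 and 141 members without doxycycline (56.25 and 58.75%) and of 153 and 173 with it (63.75 and 72.1%). In other chromosome 19 genes the shares were 46.9 and 40.6% without doxycycline and 49.5 and 49.4% with it, so both sets of genes were higher with doxycycline. Whether the members differed from the other genes in this was not tested. YY1 peaks on the longest coding exon were found in 2.08 to 3.33% of members. At the 122 members with YY1 at the 5′ end in both libraries without doxycycline, H3K9me3 reached the 5′ end in 0 to 9.84% of genes across the 5 libraries. At the 86 members with YY1 there in neither, it did in 19.8 to 45.3%. OCT4, with 1 library per condition and so no replicate check, was at the 5′ end of 36 of the 240 members without doxycycline and 3 (1.25%) with it. In the other genes of the chromosome the shares were 16.6 and 1.21%.

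The longest coding exon was the most covered feature. Its bases were covered over 77.3% in NCCITs, 82.9 and 80.8% without doxycycline, and 76.9 and 81.4% with it. The rest of the gene body had 37.6 to 51.7%. The difference was 36.5 percentage points ± 3.39 (SD, n = 5), with the exon higher in 5 of 5 libraries (exact sign-flip permutation test, two-sided, p = 0.0625, the smallest possible). Introns, at 39.7 to 54.0%, and the other coding exons, at 37.01 to 51.5%, were near each other. The 3′ UTR had 59.5 to 72.0% and the 5′ UTR 10.9 to 18.7%. Cover was highest in the first 500 bp 3′ of the exon centre, at 76.9 to 83.1%, and fell to 33.5 to 50.4% at 8 kb further 3′.

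Tiles of gene body sequence that held a match to the linker motif were more covered than the rest. Over 300-base tiles of members, the 846 tiles with a match to the motif on either strand were covered over 84.0 to 89.5% of their bases, and the 23450 tiles without one over 37.8 to 51.8%. The tiles with a match were few, and their cover was not compared with that of other sequence in the same exons. A match lay in the 300 bases around the summit of 4.59 to 6.54% of member peaks, against 0.245 to 0.494% of other chromosome 19 peaks. Of the 24296 such tiles of member bodies 846 (3.48%) held a match. Of the 186025 tiles of the whole chromosome, those of member bodies included, 1033 (0.555%) did. The share outside member bodies is therefore lower than 0.555% and was not set against the other peaks. Whether summits favour the motif more in members than elsewhere was not tested.

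The mark was uneven along the chromosome. With a gap of over 500 kb between members taken as a break, they fell into 20 groups, 12 of which held at least 2 genes. The small group from ZNF554 to ZNF77 near the short arm end was the most covered, at 76.1 to 86.5% of gene body bases, and 51.4 to 83.4% of the sequence between its genes was also covered. The group from ZNF653 to ZNF791 followed at 56.9 to 74.1%, with 24 of 25 genes marked in all libraries. The 37 genes from ZNF101 to ZNF254, a 4.53 Mb stretch, were all marked in all libraries at 39.4 to 55.8%, while the sequence between them was covered over 19.3 to 37.4%.

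The 27 unmarked genes fell in 9 of the 20 groups. In the group from ZNF628 to ZNF835, 9 of 16 genes had no peak in any library. There were 7 of 41 in the last group, from ZNF264 to ZNF446, and 4 of 23 from ZNF575 to ZNF180. ZNF574 and ZNF526, a group of their own, and the lone ZNF296 had none either. ZNF536, the longest member at 489 kb, counted as marked in all libraries but had only 0.247 to 0.710% of its body covered.

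**Figure D4:**
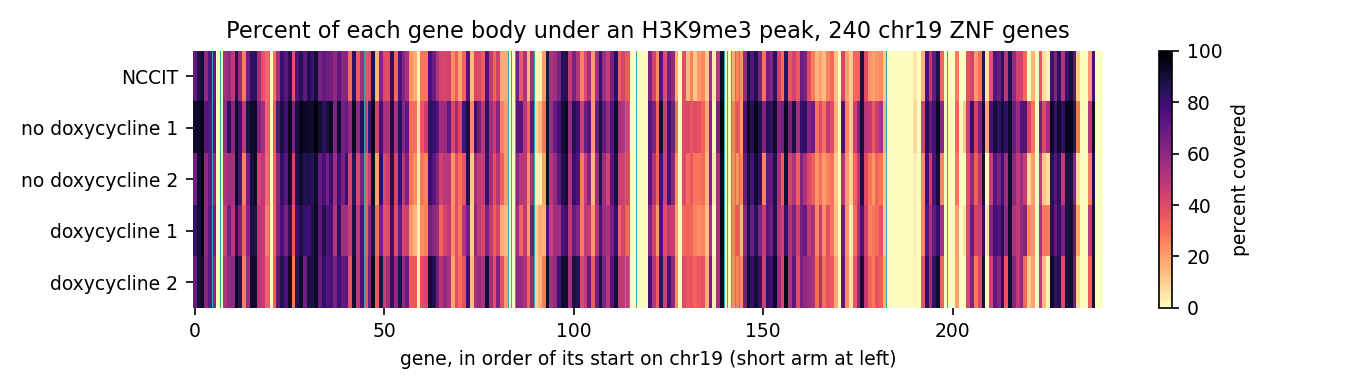
Percent of each gene body under an H3K9me3 peak (colour, 0 to 100%) for 240 chromosome 19 ZNF genes in order of position (x axis, rank) in the 5 libraries (rows). Thin vertical lines separate groups of genes more than 500 kb apart. Most genes that are pale in 1 library are pale in the others, with the first library without doxycycline darkest over most of the chromosome.

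Members differed widely in how much of the body was covered. The mean over the 5 libraries ranged from 0 to 94.9% with a median of 49.4%, and 52 genes were at 75% or more. The 8 highest were ZNF556, ZNF180, ZNF844, ZNF14, ZNF274, ZNF134, ZNF559 and ZNF700, at 89.7 to 94.9%. ZNF556 was covered over 90.6% in NCCITs, 99.0 and 96.6% without doxycycline, and 96.4 and 92.1% with it. ZNF274 was covered over 88.3, 95.1, 88.1, 89.9 and 90.3% in the same order. The library order was not the same in both genes, and all values were high.

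Genes whose proteins act on retroelements lay across the whole range. ZNF91 was covered over 47.3% in NCCITs, 55.8 and 55.0% without doxycycline, and 48.1 and 55.4% with it, and its longest coding exon was covered fully in every library. ZNF93, which represses LINE-1 elements, had 39.6, 53.2, 40.6, 37.5 and 45.0% in the same order. ZNF649 was among the most covered at 86.7 to 92.9%, and ZNF765 among the less covered at 19.6 to 35.1%. ZNF611, which binds SVAs, had 20.2% in NCCITs, 40.5 and 30.05% without doxycycline, and 46.2 and 53.5% with it. For ZNF611 both libraries with doxycycline were above all others.

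Together the libraries covered 4413 kb of the member bodies, and 46.1% of that was covered in all 5. In other chromosome 19 genes the share was 35.7%. A single library accounted for 12.5% of the union, of which the largest part, 273 kb, was found only in the first library without doxycycline. That library held 91.3 to 93.9% of the bases covered in each of the other 4, which in turn held 69.4 to 80.2% of its own. Between pairs of libraries, shared bases made up 63.1 to 78.8% of the union, and the pair most alike was the second library without and the second with doxycycline. The SD of a gene's covered share over the 5 libraries had a median of 6.94 percentage points among the 213 genes marked in any library.

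The 4 genes that differed most between replicates of a condition were ZNF417, ZNF98, ZNF71 and ZNF614. ZNF417, which binds an endogenous retrovirus, was covered over 2.26% in NCCITs, 53.7 and 7.31% without doxycycline, and 27.4 and 1.83% with it. Replicate 1 was the higher of the pair in both conditions. Its close relative ZNF587 had 6.74, 39.1, 12.4, 28.4 and 14.7%, again higher in both first replicates. For some of these genes the sequence is shared. Only 55.2% of the 100-base words in the longest coding exon of ZNF417 or ZNF587, and 57.9% for ZNF98, occurred once on chromosome 19, the lowest values of all members together with 57.7% for ZNF492. Reads that map to more than 1 place were removed, so the values of ZNF417, ZNF587, ZNF98 and ZNF492 are uncertain. The exons of ZNF71 and ZNF614 were fully unique by this measure.

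Doxycycline left the number of marked genes nearly as it was. The mean was 88.1% ± 0.884 (SD, n = 2) without and 87.1% ± 0 (SD, n = 2) with doxycycline, a difference of -1.04 percentage points (exact permutation test, two-sided, p = 0.333, the smallest that 2 against 2 allows). Without the first library lacking doxycycline the difference was -0.42. No gene was gained (a peak in each doxycycline library, none in the pair lacking the drug), where 0.417% of all protein-coding genes were. One gene was lost, where 0.56% of all protein-coding genes were. It was ZNF507, with 1.61 and 0.791% of its body covered without doxycycline and none with it or in NCCITs. Against the second library lacking doxycycline alone, the counts were again 0 gained and 1 lost, where 1.19 and 1.53% of all protein-coding genes were.

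The covered share did not differ beyond the spread of the libraries. It was 48.0% ± 6.95 (SD, n = 2) without and 44.3% ± 3.13 (SD, n = 2) with doxycycline (difference -3.71 percentage points, exact permutation test, two-sided, p = 0.667). Without the first library lacking doxycycline the difference was 1.20 percentage points, with the doxycycline libraries higher. The share of marked 5′ ends behaved alike, with a difference of -3.96 percentage points (exact permutation test, two-sided, p = 1) and 1.04 without that library.

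Covered bases in both libraries with doxycycline lay above both without in 4 of the 213 members with a peak in any of the 4 libraries (1.88%), where 4.39% of all protein-coding genes did. The 4 were ZNF875, ZNF611, ZNF565 and ZNF146. They lay below in 30 members (14.1%), where 22.1% of all genes did. These counts rested on the first library lacking doxycycline. Against the second alone, a comparison added after the data were seen, both libraries with doxycycline lay above it in 64 of 212 members (30.2%) and below it in 35 (16.5%), where 14.2 and 38.5% of all genes did. Among the 30, ZNF577 had 75.9 and 69.4% of its body covered without doxycycline and 60.7 and 66.3% with it. ZNF439 had 64.2 and 41.5% without and 35.2 and 28.0% with it, while NCCITs, also without doxycycline, had 58.2 and 37.3% in the same genes. The NCCIT value was thus below both uninduced SCi-NCCIT libraries in each of the 2 genes. ZNF577 and ZNF439 were chosen after their values were seen, as the 2 with the largest difference in covered bases.

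Base by base, 47.3 kb of member sequence (0.644%) was covered in both libraries with doxycycline and in none of the other 3, in 340 stretches with a median of 102.5 bp. Sequence covered in both SCi-NCCIT libraries without doxycycline and in neither with it came to 85.2 kb (1.16%) in 664 stretches. This loss was called without regard to NCCITs, so it was the less strict call and the 2 amounts are not alike. Both also depended on which libraries were used, as given in the closing section. In the other chromosome 19 genes, which carry less of the mark, the gained and lost shares of the bodies were 0.15 and 0.239%. As a share of all bases covered in any library, gained and lost sequence made up 1.07 and 1.93% in the members and 1.68 and 2.68% in the other genes. Only 8 gained stretches exceeded 500 bp. The longest, of 2954 bp, lay in the body of ZNF875, 18.3 kb from its 5′ end, where no transcript has an annotated exon. The peaks there had a fold enrichment of 7.63 and 13.8 in the libraries with doxycycline. ZNF875 (once named HKR1) had 20.5% of its body covered in NCCITs, 21.2 and 14.999% without doxycycline, and 22.2 and 33.9% with it. Both doxycycline values were above the other 3, the lower of them narrowly.

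Few de-repressed SVAs lay in the members. Of the 751, 31 were on chromosome 19 and 7 were inside a member, in ZNF665, ZNF888 or the overlapping ZNF586 and ZNF552. The 7 are annotated entries and mark fewer separate places, since those in ZNF665 all lay within chr19:53689207-53691824. In ZNF888, 1 entry was only 22 bp long. None of these 7 had a peak in either library with doxycycline, and only 1, in ZNF665, had one in any library (173 bp in the first library without doxycycline). The nearest de-repressed SVA to the long gained stretch of ZNF875 was 1475 kb away, and the gained stretches of ZNF611 over 500 bp were 204 and 207 kb from one. Only the 751 de-repressed SVAs were used for these distances. The paper states that the guides target most annotated SVAs and also sequence in LTR5Hs elements. Distances to those other targets were not measured, so a nearer guide target is possible.

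RNA-seq showed that most of the marked genes were transcribed. In each library without doxycycline, 18 to 20 of the 206 genes marked in all libraries and 2 of the 27 unmarked genes were under 1 TPM. Over the 3 libraries without doxycycline, the 206 genes marked in all libraries had a median level of 4.95 TPM (of the mean per gene), with a range of 0.0178 to 69.8, and the 27 unmarked genes had a median of 5.88 TPM (0.277 to 47.8). Among the marked genes, the median was 10.1 TPM in the 13 genes with under 20% of the body covered, 6.36 from 20 to 40%, 4.91 from 40 to 60%, 4.19 from 60 to 80%, and 4.83 TPM in the 37 genes at 80% or more. ZNF556, the most covered gene, was at 0.0769 to 0.141 TPM in the 6 libraries, while ZNF274 was at 14.96 to 17.5 TPM with 90.3% of its body covered.

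With doxycycline, RNA of 36 of the 234 members tested fell (15.4%) and that of 4 rose (1.71%) at an adjusted p under 0.05 (edgeR quasi-likelihood test, Benjamini-Hochberg over 16371 genes). Among all genes tested 8.48% fell and 8.97% rose. The median log2 fold change of the members was -0.14 and that of all genes was -0.0025, with 186 of the 234 members below 0. Of the 200 tested genes marked in all 5 libraries, 34 fell and 1 rose, with a median of -0.15. Of the 27 unmarked ones, 2 fell and 2 rose, with a median of -0.01. The difference between marked and unmarked genes was not tested. The number that fell ranged from 11 to 41 when 1 RNA-seq library was left out, with 12 without the second and 15 without the third library lacking doxycycline, and 19 and 11 without the first and second library with it.

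ZNF486 had the largest fall. Its level was 6.73, 7.98 and 8.09 TPM without doxycycline and 4.22, 3.43 and 4.36 TPM with it, so the groups did not overlap. The log2 fold change was -1.02 (SE 0.0932, adjusted p = 0.000135 by edgeR). ZNF90 fell from 26.9 to 27.7 TPM to 17.9 to 20.9 TPM. The 4 that rose were ZNF541, ZNF404, ZNF444 and ZNF358, of which ZNF444 and ZNF358 had no H3K9me3 peak in any library and ZNF541 stayed under 0.3 TPM. ZNF486 and ZNF90 and these 4 were chosen after their values were seen. Each of the 4 rises lost its call when any of several single libraries was left out, while ZNF486 and ZNF90 kept theirs under every alternative run.

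Of the genes acting on retroelements, ZNF611 fell from 8.25, 8.43 and 8.51 TPM to 6.89, 6.60 and 6.48 TPM (log2 fold change -0.51, SE 0.0892). ZNF649 and ZNF93 also fell, by 0.37 and 0.27 on the log2 scale, but lost the call when any of several single libraries was left out, and ZNF91, ZNF765, ZNF417, ZNF587 and ZNF274 did not pass the test (log2 fold changes of -0.16 to 0.19). ZNF875, with its gained stretch, fell from 56.3 to 61.5 TPM to 46.1 to 52.7 TPM, a log2 fold change of -0.28 (SE 0.0528). Of the 4 genes with more covered bases in both doxycycline libraries, ZNF875, ZNF611 and ZNF146 fell and ZNF565 did not pass (log2 fold change -0.17, SE 0.154). Among members with fewer covered bases in both, ZNF90 fell, ZNF404 rose, and ZNF44, ZNF439, ZNF560 and ZNF763 did not pass. The remaining members with fewer covered bases were not set beside these, and a link between cover and RNA was not tested.

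Where 8.48% of all genes tested fell and 8.97% rose, none of 16 genes of the H3K9me3 machinery rose and 3 fell. These were MPHOSPH8, a subunit of the HUSH complex that binds H3K9me3 (log2 fold change -0.66), and the H3K9 demethylases KDM4C (-0.68) and KDM4A (-0.24), the last of which lost its call without any of several single libraries. TRIM28 (-0.07), SETDB1 (-0.10) and ATRX (-0.17) did not pass the test. Of the 10 embryonal carcinoma markers 5 fell (TDGF1, DNMT3B, NANOG, SALL4 and TERF1) and none rose, and their part in the values above was not tested.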

How the data were processed

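H3K9me3, YY1 and OCT4 ChIP-seq peak lists and RNA-seq tables were used. Per the labels and the study's methods, the authors aligned adapter-trimmed reads to hg19 with BWA, kept uniquely mapped reads, removed duplicates and called peaks per library at a false discovery rate of 5%. The peak caller is not given in the sources used here. The deposited lists give fold enrichment (a ratio) and −log10 p and q, but no depth, so intervals cover counting error only. For RNA the authors deposited kallisto estimated counts and TPM per transcript. Covered bases were computed in Python 3.11.15 after merging overlapping peaks, and the code was checked on simulated intervals against bedtools 2.31.1. Gene models were GENCODE v44 lifted to hg19. In the 3 members without a canonical transcript the one with the longest coding sequence was used. Of the members, 95 overlapped another protein-coding gene. Estimated counts were summed per gene, rounded, filtered (filterByExpr) and tested with edgeR 4.0.16 (TMM, quasi-likelihood, no block), threshold 0.05. Totals were 14683468 to 47862394 counts per library. DESeq2 1.42.0 was an alternative. Nothing says whether replicates were separate cultures, so p-values measure the spread between these libraries, which may be technical.

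The members, gene lists and tests were chosen with earlier results of these data known. Named genes were a list of zinc finger genes acting on retroelements or ZNF genes, the 8 with the highest mean cover, up to 8 gained and 8 lost with doxycycline, the 6 longest unmarked (ZNF653, ZNF284, ZNF888, ZNF444, ZNF805 and ZNF837) and the 4 that differed most between replicates. Alternatives were peaks with a −log10 q of at least 5, the same number of peaks per library (123014), bodies extended by 2 kb, a gene called marked at 10% covered, members that overlap no other gene, genes of at least 5 kb, and each library left out. The HiChIP table holds 16 columns of values that were not used. Sequences were read from the hg19 genome by coordinate, and 1 that was withheld is not reported here.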

Additional observations from a re-analysis of the deposited data

How the results depend on the processing

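The direction held for the marked share, for the excess of cover over other chromosome 19 genes and over other ZNF genes, for the rise toward the 3′ end and for the excess in the longest coding exon, under every alternative run. The number of libraries did not allow any of these tests to reach 0.05, so their p-values say nothing of stability. The excess over other chromosome 19 genes ranged from 34.5 to 46.3 percentage points, the 3′ rise from 29.5 to 38.8 and the exon excess from 35.8 to 39.8. The doxycycline difference in covered share was 1.20 without the first library lacking doxycycline and -8.63 without the second, and that of marked 5′ ends 1.04 and -8.96. The settings for the 5′ ends and the other sets of compared genes were added after the data were seen. No gene counted as lost with a −log10 q of at least 5 or with 10% of the body required, and 1 to 3 did when a library was left out. Gained sequence was 30.2 kb with a −log10 q of at least 5 and 102 to 250 kb when 1 library was left out, and lost sequence then ranged from 128 to 528 kb (419.974 kb without the second library lacking doxycycline, 205.034 kb without the first with it), since fewer libraries had to agree. The number of genes with a peak in all libraries was 206 to 207 when 1 was left out.

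For RNA, 34 genes fell and 3 rose by DESeq2, 36 and 4 with DESeq2 size factors, and 35 and 4 with no filter. With the replicate number as a block 39 fell and 3 rose. Deviations of same-numbered samples correlated at 0.128, 0.0799 and -0.000942. With a sample of another number the highest correlations were -0.0476, 0.0598 and 0.0392. These low values cannot decide whether the numbers pair the samples, so the block is given as an alternative only. Leaving out 1 library gave 11 to 41 lower and 0 to 4 higher. Among the secondary values, which include those of single genes and the count of all genes called, 497 stayed the same, 51 became weaker, 5 became stronger and 6 moved. For the RNA of single genes, weaker means a lost call and stronger a gained one, and none could be labelled moved. Among the main results of peaks and RNA together, 90 stayed the same, 21 moved and 2 reversed direction. No paired analysis was possible for the H3K9me3 libraries because only the second library of each condition has a number in its label, so the conditions share 1 number. The number of peak libraries and the absence of read depth limit all values of cover.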
